A study of Saccharomyces cerevisiae with 29 samples.

Results

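This account covers 8 yeast genes of nucleotide synthesis and transcription termination: IMD2, URA2, URA8, ADE12, NRD1 and HRP1, together with the IMD2 paralogs IMD3 and IMD4 for comparison. They were taken by name from the 5798 coding rows of the deposited table, not by their values. All 8 passed the filter on low values. The same-strand noncoding rows that begin within 1000 bases before one of these ORFs were added, which gave 4 rows: cryptic unstable transcripts (CUTs) and an Xrn1-sensitive unstable transcript (XUT).

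Early termination, or attenuation, stops RNA polymerase II soon after it starts, so that a short RNA is made in place of the mRNA. In budding yeast the RNA-binding proteins Nrd1 and Nab3 and the helicase Sen1 end such short transcripts, and the nuclear exosome with its nuclease Rrp6 degrades them. At IMD2, URA2, URA8 and ADE12 the choice between short RNA and mRNA is known to depend on the start site and on the nucleotide pool, while NRD1 and HRP1 mRNAs are known to be limited by their own proteins. Xrn1 is the main cytoplasmic 5′ to 3′ exonuclease.

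Of 29 samples of the budding yeast strain W303, 17 are total RNA libraries, and the other 12 were not analysed here. The tested strains in G1 were rrp6::TRP with URA3::GPD-TK7 (rrp6Δ, 2 libraries), xrn1::ADE2 (xrn1Δ, 2), rad50::KAN with URA3::GPD-TK7 (rad50Δ, 2), mre11::HIS (mre11Δ, 2), mre11::mre11-H125N (a change in the Mre11 nuclease site, 2) and ku70::HIS (ku70Δ, 1). Wild type was taken in S phase with methyl methanesulfonate (MMS, 2 libraries), a DNA-alkylating agent, and in G1 (4 libraries). Every strain was MATa and RAD5 and carried ade2-1, trp1-1 and can1-100. The markers his3-11,15, ura3 and GAL and a leu2 allele were shared as well. Cells grew in yeast extract and peptone with 2% glucose, and G1 cells stood in α-factor (5 µg/ml) for 170 min at 25 °C. The MMS cells were released into S phase with 0.033% MMS for 60 min, so treatment and cell cycle stage cannot be told apart there.

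Values are reads of a row divided by the size factor of its library (normalized reads), and fold changes are log2 of the value plus 1. A row is said to rise or fall where limma put its p below 0.05 after Benjamini-Hochberg adjustment across the 16559 rows tested. Nothing in the labels says that libraries of a group came from separate cultures, and the spread behind each p-value may therefore be technical. In bulk RNA, fewer cells making a transcript and less of it in each cell cannot be told apart. Depth was 7419447 to 32613640 reads on coding ORFs.

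The deleted genes checked the labels. RRP6 averaged 1.39 normalized reads in rrp6Δ and 3459 in wild type in G1, and XRN1 averaged 12.8 in xrn1Δ and 11149 in wild type. RAD50, MRE11 and YKU70 stood between 0 and 2.99 in their own deletions, against wild-type means of 659.6 to 1034. The ADE2 row averaged 2714 in xrn1Δ, where it is the marker, and 633 in wild type. The TRP1 row averaged 251 in rrp6Δ, where TRP is the marker, but 373 in xrn1Δ, with 132 in wild type. HIS3 stood at 481 in mre11Δ and 288 in ku70Δ, where HIS is the marker, against 595 in rad50Δ and 377 in wild type. Neither the TRP1 nor the HIS3 row singled out its marked strains. Libraries of number 1 in wild type, mre11Δ and rad50Δ stood apart by G1/S genes: the mean log2 over 20 of them was 3.15 in mre11Δ 1, 1.67 in rad50Δ 1 and 1.96 in wild type 1, relative to the wild-type mean, and -0.83 to 0.67 in the other G1 libraries. Pheromone genes (20) ran the other way in those libraries, at -1.99, -0.84 and -0.93. Genes of α cells (4), which MATa cells should not express, summed to 291 to 420 normalized reads in wild type in G1. They summed to 3706 and 4880 in rad50Δ and to 1767 and 3351 in mre11Δ. Also above wild type were rrp6Δ (857 and 884), xrn1Δ (1728 and 1717), mre11-H125N (816 and 869) and ku70Δ (1487). MMS libraries stood at 263 and 234. Genes of a cells (7) summed to 4227 and 4686 in MMS and to 40767 to 123602 in all G1 libraries. The part of these differences in the results was not tested.

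Positions are those of the deposited table, build R64. IMD2 (YHR216W, chromosome 8, 554396 to 555967, plus strand), IMD3 (YLR432W, chromosome 12, 1002557 to 1004128, plus) and IMD4 (YML056C, chromosome 13, 162194 to 164176, minus) encode IMP dehydrogenase, the first step from IMP towards GTP. URA2 (YJL130C, chromosome 10, 165723 to 172752, minus) encodes the enzyme of the first steps of pyrimidine synthesis. URA8 (YJR103W, chromosome 10, 620754 to 622490, plus) encodes a CTP synthase. ADE12 (YNL220W, chromosome 14, 234413 to 235714, plus) encodes adenylosuccinate synthase, on the branch from IMP towards AMP. NRD1 (YNL251C, chromosome 14, 172588 to 174315, minus) encodes the termination factor Nrd1. HRP1 (YOL123W, chromosome 15, 87844 to 89448, plus) encodes a subunit of mRNA cleavage factor I.

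The 4 upstream rows belong to 3 of the genes. CUT680 (chromosome 10, 172959 to 173063, minus) ends 206 bases before the URA2 ORF and shares its last base with the URA2 transcript row. CUT324 (chromosome 14, 234042 to 234186, plus) and CUT325 (234186 to 234322, plus) lie end to end before ADE12, 226 and 90 bases from the ORF. They share base 234186, and CUT325 shares base 234322 with the ADE12 transcript row. A read across a shared base could count in both rows. XUT1610 (chromosome 14, 174810 to 175218, minus) lies between NRD1 and its neighbour RAD50. IMD2 has no such row, and its transcript row has the same ends as its ORF row, so its known short upstream RNA was not measured here.

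**Figure D1:**
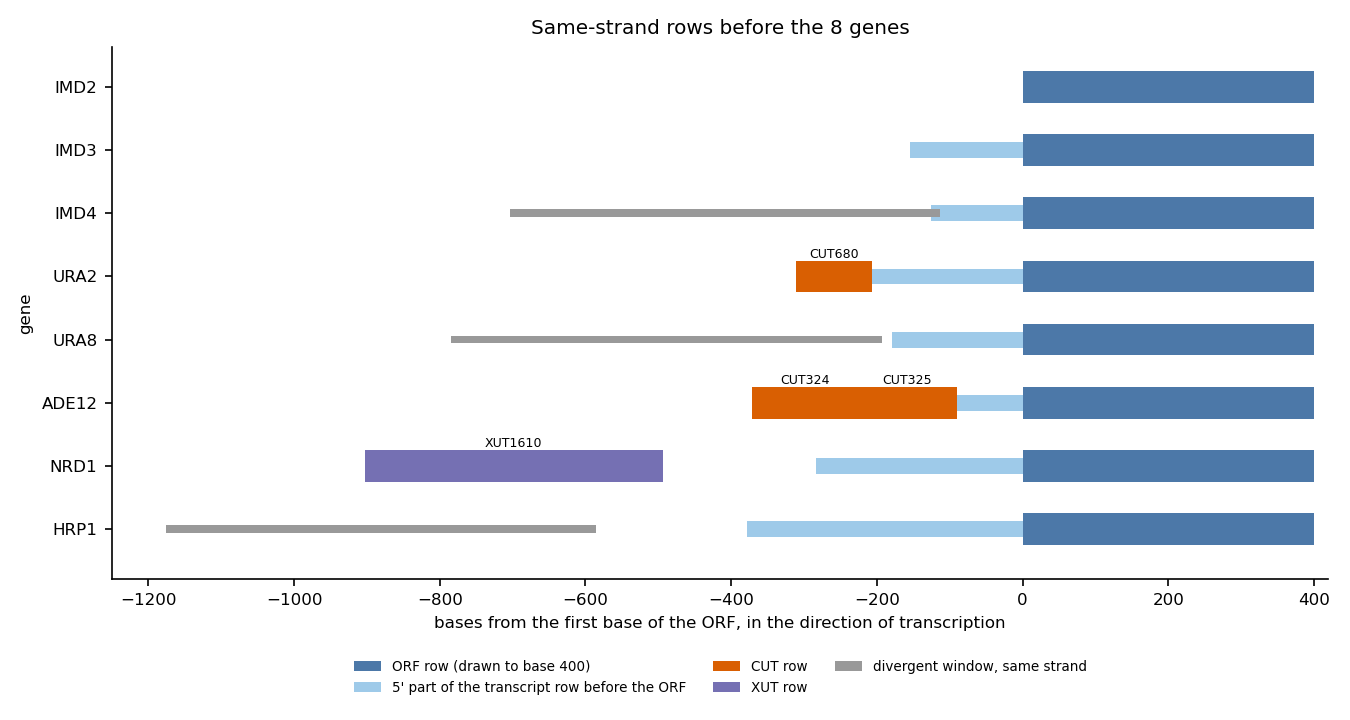
Same-strand rows before the 8 genes, drawn to scale in bases from the first base of each ORF in the direction of transcription. Dark blue bars are ORF rows drawn to base 400, light blue bars the 5′ part of the transcript row, and orange, purple and grey bars CUT, XUT and divergent-window rows. URA2, ADE12 and NRD1 have a CUT or XUT row before them, and IMD2 has none.

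In wild type in G1 the 8 genes spanned more than an order of magnitude per length. IMD4 had 9924 ± 1597 normalized reads per kb (SD, n = 4), IMD3 8457 ± 412, URA2 6174 ± 798 and IMD2 5102 ± 444. ADE12 followed with 2951 ± 803 per kb, HRP1 with 2760 ± 297, URA8 with 1210 ± 60.5 and NRD1 with 439 ± 93.6. IMD4 and IMD3, and ADE12 and HRP1, lay within their spread of each other in this order. The IMD4 row includes the intron that holds snR54, a small nucleolar RNA, whose own row was 11.5% to 19.5% of the IMD4 row in the groups. IMD1, a near copy of IMD2 that is listed as dubious, was at 0.885% to 3.28% of the IMD2 row, and how reads shared by the copies were counted is not given in the sources used here, so their part in the IMD2 values was not tested.

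**Figure D2:**
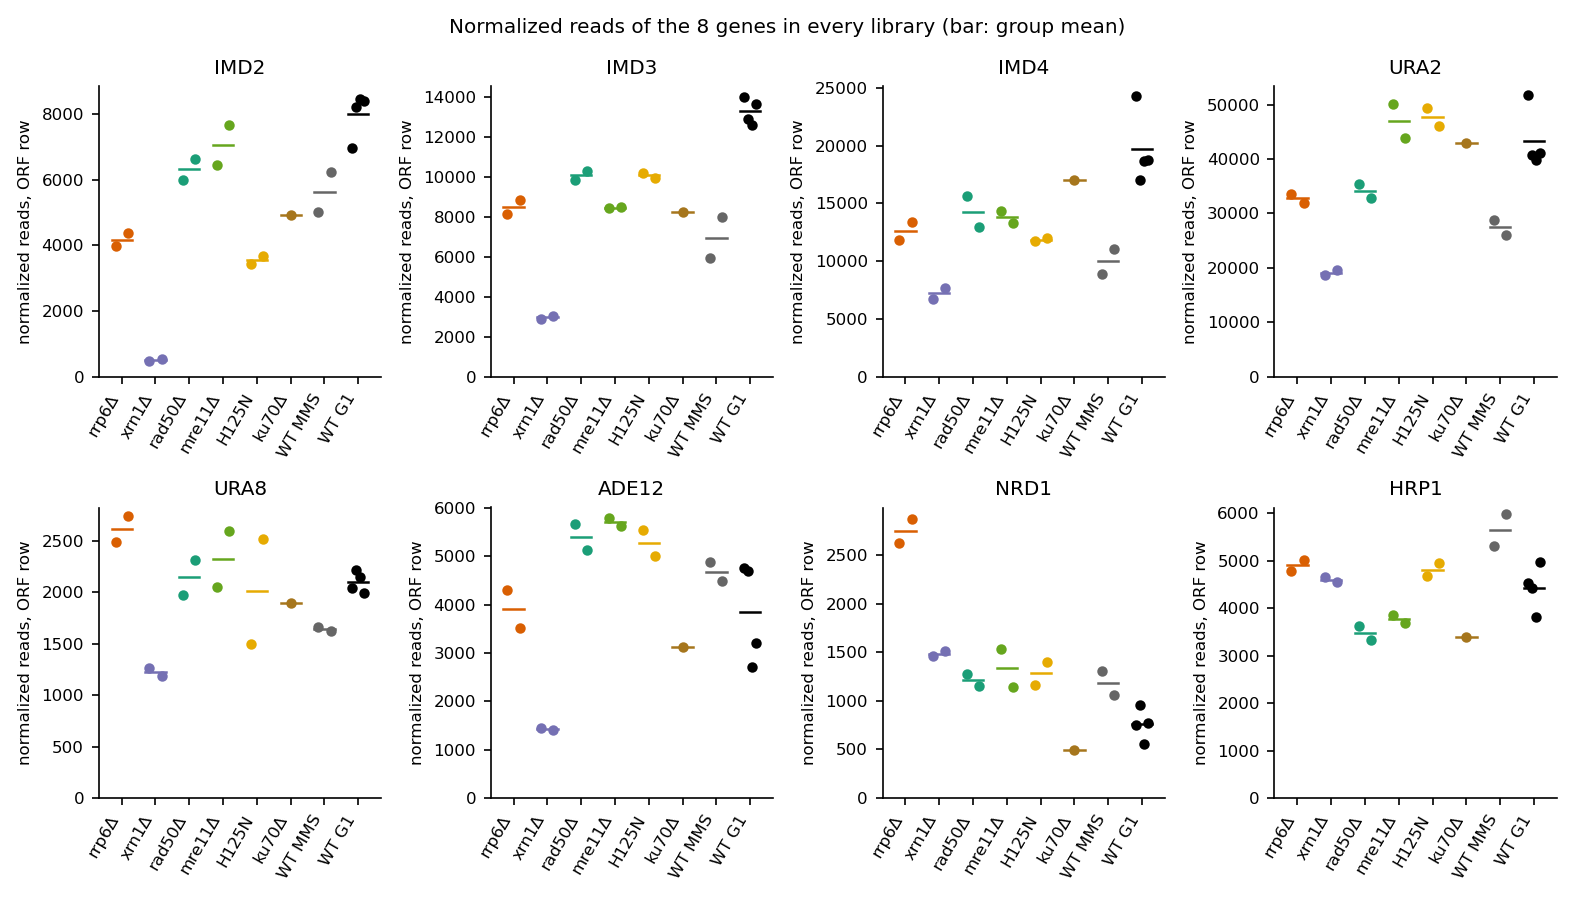
Normalized reads of the 8 ORF rows (vertical axes, from 0) in every library, by group (horizontal axes, mutants and MMS left of wild type in G1). Points are libraries and bars are group means. IMD2 and IMD3 are lowest in xrn1Δ, and NRD1 is highest in rrp6Δ.

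In rrp6Δ, which lacks the nuclear nuclease Rrp6, NRD1 rose and the IMP dehydrogenase genes and URA2 fell. Of the 8 genes, 1 rose and 4 fell, where 17.8% of all coding rows passed the test (8.64% higher and 9.19% lower). NRD1 had 2621 and 2869 normalized reads in the rrp6Δ libraries, against 748, 955, 560 and 774 in wild type. The groups did not overlap, and the change was 3.62-fold (log2 1.88, SE 0.18, adjusted p = 8.51e-06), the 34th highest of 5580 coding rows. IMD2 had 3995 and 4367 normalized reads in rrp6Δ, against 6983, 8231, 8465 and 8402 in wild type. Both rrp6Δ libraries lay below every wild-type library, with a log2 change of -0.94 (SE 0.12, adjusted p = 7.69e-05).

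The paralogs fell with IMD2 in rrp6Δ against wild type, but neither passed against rad50Δ, which carries the same cassette at URA3. IMD3 averaged 8504 ± 495 normalized reads in rrp6Δ (SD, n = 2) and 13294 ± 648 in wild type (n = 4), a log2 change of -0.64 (SE 0.11, adjusted p = 8.22e-04 by limma). IMD4 averaged 12606 ± 1150 in rrp6Δ and 19679 ± 3168 in wild type, a log2 change of -0.63 (adjusted p = 0.00591), which missed the threshold without rrp6Δ replicate 1 (-0.54, adjusted p = 0.088). Taken without snR54, the IMD4 difference was -0.74 log2. IMD2 made up 16.5% of the summed reads of the 3 genes in rrp6Δ and 19.7% in wild type, where the libraries spanned 15.4% to 21.6% and overlapped rrp6Δ.

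URA2 averaged 32768 ± 1164 normalized reads in rrp6Δ and 43399.8 ± 5609 in wild type, a log2 change of -0.40 (SE 0.12, adjusted p = 0.0269). The call was lost without either rrp6Δ library (adjusted p = 0.107 and 0.172) and by the URA2 transcript row (adjusted p = 0.0508). URA8 averaged 2617 ± 183 in rrp6Δ and 2102 ± 105 in wild type and did not pass (adjusted p = 0.183), although its groups did not overlap. ADE12 averaged 3908 ± 546 in rrp6Δ and 3843 ± 1045 in wild type. Its wild-type libraries split, with 4765 and 4694 in numbers 1 and 2 and 2705 and 3206 in numbers 3 and 4, so that the difference was -0.28 log2 against the first pair and 0.40 against the other. HRP1 averaged 4901 ± 154 in rrp6Δ and 4430 ± 477 in wild type, with overlapping groups.

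**Figure D3:**
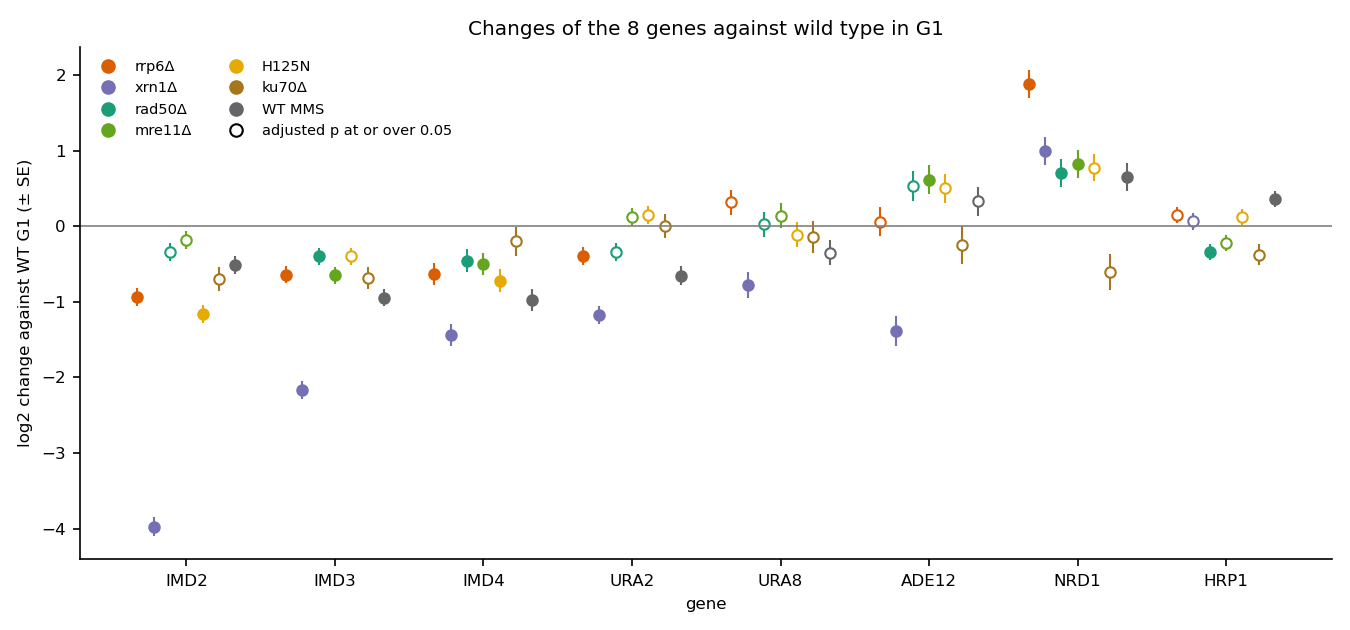
Log2 change of each gene (horizontal axis) against wild type in G1 (vertical axis, ± SE) in 6 mutants and in MMS-treated wild type. Filled points passed an adjusted p of 0.05 in limma and open points did not. IMD2, IMD3 and IMD4 lie below 0 in every comparison, and NRD1 lies above 0 in all but ku70Δ.

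The short RNAs before URA2 and ADE12 rose in rrp6Δ, as most CUTs did: 86.1% of the 760 CUT rows tested passed (85.5% higher and 0.526% lower). A weak noncoding row could pass the filter on low values through rrp6Δ alone. That can raise the shares of noncoding rows, and of ratios with them, in every comparison with rrp6Δ. CUT680, CUT324 and CUT325 averaged 39.4, 18.8 and 52.1 normalized reads without the rrp6Δ libraries, above the minimum of 10. CUT680 had 1201 and 1216 normalized reads in rrp6Δ, against 39.0, 42.6, 11.4 and 26.5 in wild type. This was a 40.4-fold difference (log2 5.44, SE 0.40, adjusted p = 1.16e-06), the 18th highest of the 760 CUT rows. CUT325 had 213 and 236 normalized reads in rrp6Δ, against 54.8 to 69.9 in wild type (log2 1.86, adjusted p = 5.71e-05). CUT324 had 88.2 and 132 in rrp6Δ, against 15.3 to 36.6 in wild type (log2 2.06, adjusted p = 0.00132). XUT1610 was close to nothing in both groups, with 1.57 and 2.59 normalized reads in rrp6Δ and 0.914 to 9.75 in wild type.

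**Figure D4:**
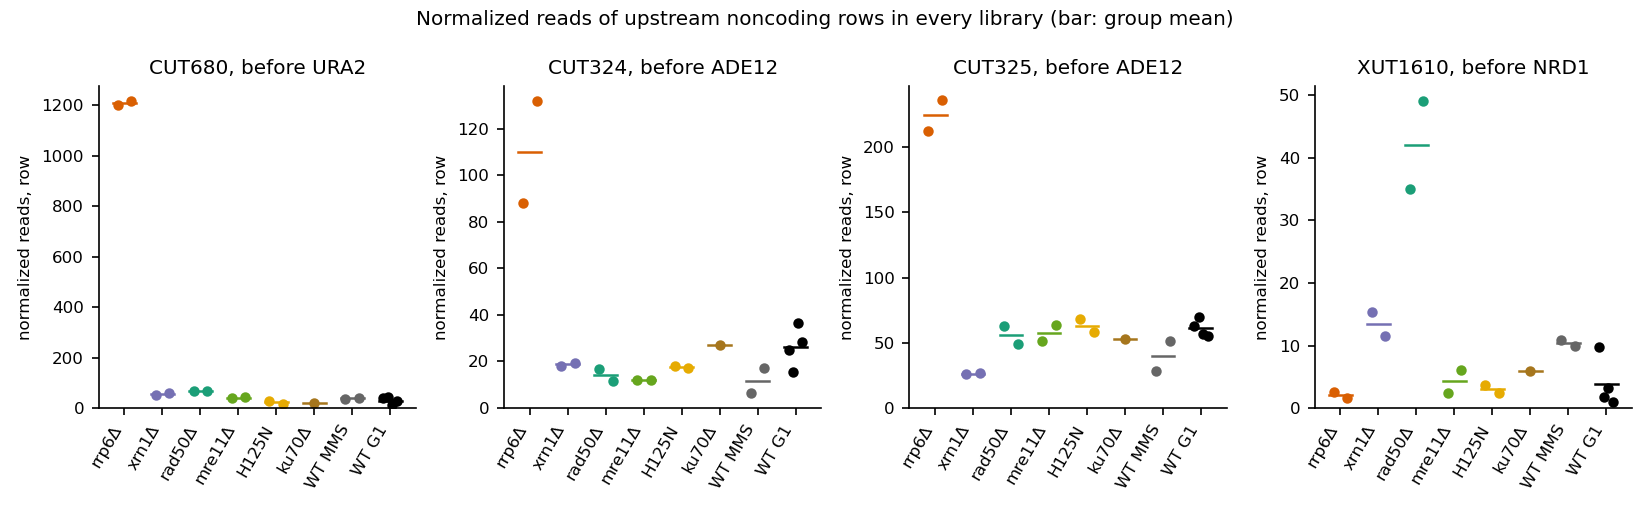
Normalized reads of the 4 upstream noncoding rows (vertical axes, from 0, each with its own scale) in every library by group, with wild type in G1 on the right. Points are libraries and bars group means. CUT680, CUT324 and CUT325 are highest in rrp6Δ, and XUT1610 is highest in rad50Δ.

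Set against their own mRNA, the upstream rows shifted at both genes. Reads of CUT680 were 3.69% ± 0.162 of the URA2 ORF reads in rrp6Δ (SD, n = 2) and 0.0682% ± 0.0313 in wild type (n = 4). Per base, CUT680 stood at 247% of the URA2 ORF in rrp6Δ and at 4.56% in wild type. The log2 ratio rose by 5.84 (SE 0.42, adjusted p = 1.4e-07 over 441 pairs in limma), 5th of the 441 pairs, of which 63.3% passed. For ADE12 the ratio rose by 1.81 with CUT325 (adjusted p = 2.22e-04) and by 2.00 with CUT324 (adjusted p = 0.0037), the second of which was lost without rrp6Δ replicate 2 (1.57, adjusted p = 0.0695). XUT1610 rested on 3 reads in each rrp6Δ library and on 1 to 7 in wild type, too few to set against NRD1.

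Reads of the transcript row outside the ORF were also set against the ORF, a measure chosen after the values were seen, for every gene but IMD2. These flank reads join the 5′ and 3′ sides of the ORF, which the row does not separate. In rrp6Δ, 14.9% of the 2662 genes tested passed on the ratio of flank reads to ORF reads (4.21% higher and 10.7% lower). IMD3 had flank reads at 4.19% and 4.24% of its ORF row in the rrp6Δ libraries, against 0.905%, 1.01%, 0.696% and 0.542% in wild type. The ratio rose by 2.45 log2 (SE 0.33, adjusted p = 9.29e-04). URA2 had 4.48% and 5.09% in rrp6Δ, against 0.841% to 1.33% in wild type, and rose by 2.27 log2 (adjusted p = 3.2e-04). Its flank shares its outermost base with CUT680, so a read across that base could count in both. The HRP1 flank was 1.24% and 7.92% of the ORF in rrp6Δ, against 6.55% to 15.9% in wild type. The libraries of rrp6Δ disagreed, and the call (-1.91, adjusted p = 0.0379) was lost without rrp6Δ replicate 1 (-0.59, adjusted p = 0.584) and without wild type 1, 2 or 3 (adjusted p = 0.0802, 0.0835 and 0.0745). NRD1 had 7.81% and 8.65% in rrp6Δ, against 4.46% to 8.28% in wild type, and did not pass (adjusted p = 0.184). IMD4 had 0.132% and 0.101% in rrp6Δ, against 0.0401% to 0.0574% in wild type, without overlap, and did not pass (adjusted p = 0.0907). ADE12 and URA8 had too few flank reads for the test. Of 1946 divergent windows tested, 24.5% passed in rrp6Δ (21.9% higher and 2.57% lower). Those on the gene strand rose before IMD4, at 57.9 and 56.0 normalized reads in rrp6Δ and 14.6 to 25.6 in wild type (adjusted p = 0.002), and before URA8, at 22.5 and 27.8 in rrp6Δ and 6.40 to 11.9 in wild type (adjusted p = 0.01). The window before IMD4 (164290 to 164880) overlaps the 5′ end of the IMD4 transcript row, which runs to 164301. A read there could count in both the window and the flank. The window before HRP1 held 0 or 1 read in each library of both groups and was not tested.

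**Figure D5:**
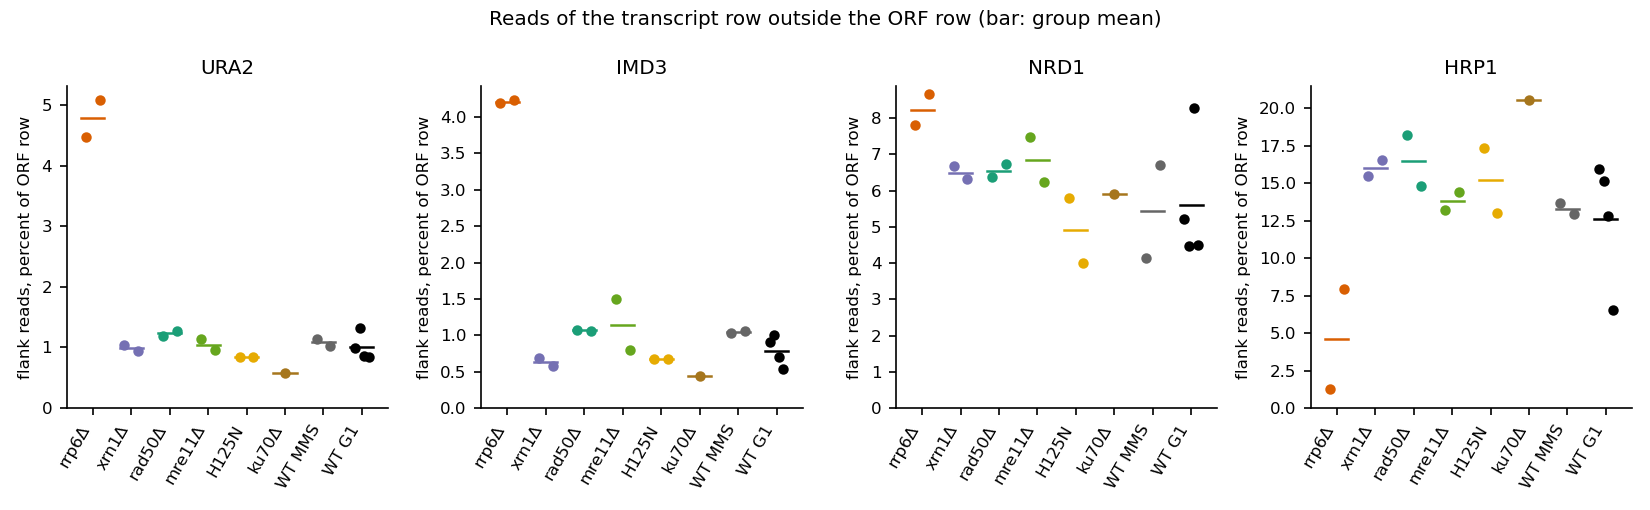
Reads of the transcript row outside the ORF row, as a percent of the ORF row (vertical axes, from 0), in every library of each group, with wild type in G1 on the right. Points are libraries and bars group means. URA2 and IMD3 stand above 4% in both rrp6Δ libraries and below 2% elsewhere, and the HRP1 rrp6Δ libraries differ from each other.

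In xrn1Δ, which lacks the cytoplasmic nuclease Xrn1, 6 of the 8 genes fell and NRD1 rose. Among the strains, xrn1Δ alone carries the marker ADE2, a purine synthesis gene, over ade2-1. Loss of Xrn1 and this marker therefore cannot be told apart in any comparison with xrn1Δ. The background was high: 68% of coding rows passed (35.1% higher and 32.8% lower), and the median log2 change was -1.28 for the 8 genes and 0.06 for all coding rows. IMD2 had 489 and 529 normalized reads in xrn1Δ, against 6983 to 8465 in wild type. It was 15.8-fold lower (log2 -3.97, SE 0.12, adjusted p = 2.33e-11), the 22nd lowest of 5580 coding rows. IMD3 averaged 2960 ± 138 in xrn1Δ and 13294 ± 648 in wild type (4.49-fold lower, adjusted p = 1.07e-08). IMD4 averaged 7194 ± 650 in xrn1Δ and 19679 ± 3168 in wild type (2.74-fold lower, adjusted p = 2.26e-06). IMD2 made up 4.78% of the summed reads of the 3 genes in xrn1Δ and 19.7% in wild type. Per length IMD2 was the lowest of the 8 genes in xrn1Δ, at 324 ± 18.1 normalized reads per kb, where in wild type it stood above 4 of them.

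ADE12 averaged 1428 ± 15.8 normalized reads in xrn1Δ and 3843 ± 1045 in wild type (log2 -1.38, adjusted p = 3.76e-05). URA2 averaged 19133 ± 778 in xrn1Δ and 43399.8 ± 5609 in wild type (log2 -1.17, adjusted p = 2.63e-06). URA8 averaged 1224 ± 54.3 in xrn1Δ and 2102 ± 105 in wild type (log2 -0.78, adjusted p = 0.00115). NRD1 averaged 1486 ± 33.7 in xrn1Δ and 759 ± 162 in wild type (log2 0.99, adjusted p = 3.7e-04). HRP1 averaged 4602 ± 64.8 in xrn1Δ and 4430 ± 477 in wild type, inside the wild-type range. None of these xrn1Δ calls was lost under any of the 20 alternatives.

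The upstream rows did not follow the ORFs in one way in xrn1Δ, where 42.5% of CUT rows passed (14.5% higher and 28% lower). CUT325 fell, with 26.2 and 26.6 normalized reads in xrn1Δ, against 54.8 to 69.9 in wild type (log2 -1.17, adjusted p = 6.48e-04). CUT680 had 51.4 and 58.2 in xrn1Δ, against 11.4 to 42.6 in wild type (log2 1.00, adjusted p = 0.0422). That call was lost without either xrn1Δ library, or without wild type 3 or 4. Its ratio to URA2 rose by 2.18 log2 (adjusted p = 0.00116, where 44% of pairs passed) and stayed past the threshold in each alternative. The IMD4 flank ratio rose by 2.29 (adjusted p = 0.00924, where 6.69% of genes passed) on 16.8 and 18.5 normalized reads in xrn1Δ and 6.82 to 13.9 in wild type. It was lost without either xrn1Δ library. The window before IMD4 had 71.4 and 70.4 normalized reads in xrn1Δ, against 14.6 to 25.6 in wild type (adjusted p = 1.24e-04), where 52.1% of divergent windows passed (28.5% higher and 23.6% lower). That window overlaps the IMD4 flank, so a read there could count in both.

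Set directly against xrn1Δ, rrp6Δ was higher in 7 of the 8 genes and lower in none, where 28.5% of coding rows passed as higher and 27.8% as lower (56.3% in all). IMD2 was 8.22-fold higher in rrp6Δ (4181 ± 262 normalized reads in rrp6Δ and 509 ± 28.4 in xrn1Δ, adjusted p = 3.56e-09 by limma). ADE12 was 2.74-fold, IMD3 2.87-fold, URA8 2.14-fold and NRD1 1.85-fold higher in rrp6Δ. HRP1 averaged 4901 ± 154 in rrp6Δ and 4602 ± 64.8 in xrn1Δ and did not pass.

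Mre11 and Rad50 form, with Xrs2, the complex that processes DNA ends. In rad50Δ, 1 gene rose and 3 fell, where 24.9% of coding rows passed (12.8% higher, 12.1% lower). NRD1 averaged 1212 ± 86.7 normalized reads in rad50Δ and 759 ± 162 in wild type (log2 0.70, adjusted p = 0.0184). IMD3 fell by 0.40, IMD4 by 0.46 and HRP1 by 0.35 on the log2 scale (adjusted p = 0.0256, 0.0435 and 0.0364). All 4 calls were lost when either rad50Δ library was left out, HRP1 also by its transcript row (adjusted p = 0.0624), and the count was 1 without wild type 4. The NRD1 ORF lies 1094 bases from the RAD50 ORF, so in rad50Δ the marker cassette is its neighbour. XUT1610, between them, had 35.0 and 49.1 normalized reads in rad50Δ (19 and 38 reads), against 0.914 to 9.75 in wild type (1 to 7 reads). Its mean over the 17 libraries was 10.1, and 5.87 without rad50Δ, so it passed the minimum mean of 10 only through the group where it was highest. These values are therefore given without a test. The part of the marker cassette in the NRD1 and XUT1610 values was not tested. In rad50Δ 12.1% of CUT rows passed (10.3% higher and 1.84% lower), among them CUT680, with 68.2 and 67.2 normalized reads in rad50Δ, against 11.4 to 42.6 in wild type (adjusted p = 0.0353). That call was lost without either rad50Δ library or wild type 4. The ratio of CUT680 to URA2 rose (log2 1.65, adjusted p = 0.0213, where 10.7% of pairs passed), a call lost without either rad50Δ library.

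In mre11Δ, NRD1 rose, with 1529 and 1146 normalized reads in mre11Δ, against 560 to 955 in wild type (log2 0.83, adjusted p = 0.0084). In mre11Δ 2 genes rose and 2 fell, where 24.1% of coding rows passed (12.1% higher, 11.9% lower). IMD3 averaged 8471 ± 19.5 in mre11Δ and 13294 ± 648 in wild type (log2 -0.65, adjusted p = 0.00206), and this call was kept in all 20 alternatives. IMD4 fell by 0.50 and ADE12 rose by 0.61 on the log2 scale (adjusted p = 0.0318 and 0.0412). The NRD1, IMD4 and ADE12 calls were lost in 3, 6 and 9 of the 20 alternatives. ADE12 had 5791 and 5634 normalized reads in mre11Δ. Its wild-type libraries had 4765 and 4694 in numbers 1 and 2, but 2705 and 3206 in numbers 3 and 4. Without mre11Δ replicate 1, the library with high G1/S genes, only the IMD3 call remained, and without mre11Δ replicate 2, or wild type 4, 2 calls were left. None of the 4 upstream rows passed in mre11Δ, where 8.95% of CUT rows did (4.61% higher and 4.34% lower).

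In mre11-H125N, 2 genes fell and none rose, where 1.45% of coding rows passed (1.04% higher, 0.412% lower). IMD2 had 3447 and 3692 normalized reads in mre11-H125N, against 6983 to 8465 in wild type. The log2 change was -1.16 (SE 0.12, adjusted p = 4.46e-04), the 59th lowest of 5580, and it passed in all 20 alternatives. IMD2 had 6443 and 7666 normalized reads in mre11Δ, which overlapped wild type. The difference between these 2 mutants was not tested here. IMD4 averaged 11839 ± 203 in mre11-H125N and 19679 ± 3168 in wild type (log2 -0.72, adjusted p = 0.0379), a call lost without either mre11-H125N library or wild type 4. NRD1 averaged 1282 ± 166 in mre11-H125N and 759 ± 162 in wild type and did not pass (adjusted p = 0.0555). URA8 had 1500 and 2518 normalized reads in the mre11-H125N libraries, a spread wider than the wild-type range of 1991 to 2222.

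The single ku70Δ library gave no calls among the 8 genes (limma, 0.789% of coding rows passed, 0.43% higher and 0.358% lower). With an unadjusted p under 0.05, as for 14.7% of coding rows, 4 of the 8 lay below wild type, and with 1 library these values have no replicate check. They were IMD2 (4924 normalized reads in ku70Δ and 8020 ± 698 in wild type), IMD3 (8270 in ku70Δ and 13294 ± 648 in wild type), NRD1 (490 in ku70Δ and 759 ± 162 in wild type) and HRP1 (3392 in ku70Δ and 4430 ± 477 in wild type). Its spread was assumed to be that of the other groups.

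In S phase with MMS, 4 genes fell and 2 rose, where 47% of coding rows passed (23.5% in each direction). IMD4 averaged 9962 ± 1549 normalized reads in MMS and 19679 ± 3168 in wild type in G1 (log2 -0.98, adjusted p = 1.96e-04). IMD3 fell by 0.95, URA2 by 0.65 and IMD2 by 0.51 on the log2 scale (adjusted p = 3.31e-05, 9.25e-04 and 0.0045). NRD1 rose by 0.65 and HRP1 by 0.35 (adjusted p = 0.0119 and 0.0175). Without MMS replicate 1 the IMD2 and NRD1 calls were lost, and without MMS replicate 2 the HRP1 call. URA8 averaged 1644 ± 23.3 in MMS and 2102 ± 105 in wild type in G1 and did not pass. CUT325 fell, with 28.2 and 51.0 normalized reads in MMS, against 54.8 to 69.9 in G1 (adjusted p = 0.0356), where 23% of CUT rows passed (6.05% higher and 17% lower). CUT324 fell too (adjusted p = 0.0264), on 3 and 12 reads in the MMS libraries, with overlapping groups. CUT325 was lost without MMS replicate 1 or wild type 1 or 2, CUT324 without MMS replicate 1 or wild type 3 or 4, and both in edgeR and in DESeq2. The ratios of CUT324 and CUT325 to ADE12 also fell (adjusted p = 0.0448 and 0.0369, where 24.5% of pairs passed). Both were lost without MMS replicate 1 and without wild type 3 or 4.

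The rrp6Δ and rad50Δ strains carry the same cassette at URA3, which makes them the pair matched for it. In rrp6Δ against rad50Δ, 2 genes rose and 1 fell, where 26% of coding rows passed (12.7% higher, 13.3% lower). NRD1 averaged 2745 ± 175 normalized reads in rrp6Δ and 1212 ± 86.7 in rad50Δ (log2 1.18, adjusted p = 0.00131). HRP1 rose by 0.50 and IMD2 fell by 0.60 on the log2 scale (adjusted p = 0.0091 and 0.00668). Both were lost without rad50Δ replicate 2, HRP1 also without rrp6Δ replicate 2 and IMD2 without rrp6Δ replicate 1. By its transcript row HRP1 changed by 0.34 and missed the threshold (adjusted p = 0.0501). CUT680 had 1201 and 1216 normalized reads in rrp6Δ, against 68.2 and 67.2 in rad50Δ (adjusted p = 5.74e-05), where 77.4% of CUT rows passed (76.6% higher). URA2 averaged 32768 ± 1164 in rrp6Δ and 34115 ± 1882 in rad50Δ, with overlapping libraries. IMD3 averaged 8504 ± 495 in rrp6Δ and 10080 ± 343 in rad50Δ, without overlap, and did not pass. IMD4 averaged 12606 ± 1150 in rrp6Δ and 14287 ± 1939 in rad50Δ, with overlapping libraries, and did not pass. The row of URA3, a later step of pyrimidine synthesis, averaged 1960.0 normalized reads in rrp6Δ, 4189 in rad50Δ and 7676 in wild type. All strains are labelled ura3, and the part of the allele or cassette in these values was not tested.

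Other genes of the same pathways were read from lists chosen with earlier results known, which also hold members of the 8: IMD2, IMD3, IMD4 and ADE12 after IMP, URA2 and URA8 among pyrimidine genes, and NRD1 and HRP1 among termination factors. In xrn1Δ, where 35.1% of all coding rows rose and 32.8% fell, 14 of 17 genes of the purine branches after IMP fell (82.4%) and 1 rose, with a median log2 change of -1.44, against 0.06 over all coding rows. ADK1, adenylate kinase, averaged 1895 normalized reads in xrn1Δ and 8130.0 in wild type, and GUD1, guanine deaminase, 1507 in xrn1Δ and 593 in wild type. Of 21 pyrimidine genes, 13 fell (61.9%) and 2 rose in xrn1Δ (median -1.03), with 71.4% called in all against 68% of coding rows. Of 18 genes of purine synthesis up to IMP, 12 fell (66.7%) and 2 rose (median -0.88), and 1 of the 2 was ADE2, the marker. Loss of Xrn1 and the ADE2 marker cannot be told apart in these lists. In rrp6Δ, where 8.64% of all coding rows rose and 9.19% fell, 5 of the 17 genes after IMP (29.4%) and 6 of the 21 pyrimidine genes (28.6%) fell and none rose. Of the 18 genes up to IMP, 4 rose there (22.2%) and none fell.

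Of 26 termination factors, 13 rose and 6 fell in xrn1Δ, or 73.1% called against 68% of all coding rows. In rrp6Δ 4 rose and 1 fell, or 19.2% against 17.8%. Both totals lay near those of all coding rows, but the directions differed more. In xrn1Δ 50% of the list rose and 23.1% fell, against 35.1% and 32.8% of all coding rows. In rrp6Δ 15.4% rose and 3.85% fell, against 8.64% and 9.19%. PCF11, a cleavage factor subunit, averaged 1229 normalized reads in xrn1Δ and 460.4 in wild type (adjusted p = 1.34e-06). It averaged 758 in rrp6Δ (adjusted p = 0.00146). Of 22 nuclear decay factors, 2 rose and 1 fell in rrp6Δ, the lower one being RRP6 itself, or 13.6% called against 17.8% of all coding rows. NAB2, a poly(A)-binding protein known to limit its own mRNA through Rrp6, averaged 3119 in rrp6Δ and 1328 in wild type (adjusted p = 7.69e-06). In xrn1Δ 14 of the 22 fell and 1 rose, or 68.2% called against 68%, with 63.6% lower against 32.8% of all coding rows. Of 4 further genes listed as attenuated (PCF11, FKS2, DEF1 and RPB10), 3 passed the filter. DEF1, which acts in polymerase removal, rose in mre11-H125N, at 5794 there and 3248 in wild type (adjusted p = 0.00466).

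Across the 17 libraries, the genes closest in pattern to each of the 8 were taken by Pearson correlation of log2 values, as a description of libraries that share groups. IMD2 ran closest to APE3 (r = 0.957), TKL1 and YPT31, and IMD3 to TIF34 (r = 0.962), GCD11 and TPA1. IMD4 ran closest to KAP123 (r = 0.943), RMT2 and URA7, the other CTP synthase gene. URA2 ran closest to GCN1 (r = 0.963), URA8 to NPL3 (r = 0.885), and ADE12 to NPC2 (r = 0.948), ADE5,7 and ADE4, of which the last 2 are purine synthesis genes. NRD1 ran closest to MSL5 (r = 0.858) and HRP1 to ENT5 (r = 0.854). Among the 8, IMD2 and IMD3 correlated at 0.9, IMD3 and IMD4 at 0.89, and NRD1 with IMD4 at -0.54.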

How the data were processed

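Total RNA of W303 yeast was taken with hot phenol, depleted of rRNA and sequenced strand-specifically, per the labels' protocols. The authors used STAR 2.5.3, SAMtools 0.1.19 and DESeq2 with build R64, per the submitters' processing notes. The counting program and its treatment of reads with several alignments are not given in the sources used here. The deposited signal values hold each row's reads after division by the size factor of the library. 100% of them lay within 0.02 of whole multiples of 1 step in each library, so whole reads were taken back. The ku70Δ library, whose step was 0.996, was left out of the count tests, which used 16 libraries.

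Values were fitted as log2(value + 1) with limma 3.58.1 (R 4.3.3; trend, robust) over 17 libraries in 8 groups with 9 residual degrees of freedom, on rows with a mean of at least 10 (16559 of 20318). The lone ku70Δ library was assumed to vary like the others. Upstream-to-ORF ratios (441 pairs) and flank-to-ORF ratios (2662 genes) were fitted likewise. The fit was tested on simulated data. The 33 other value columns were not used. Tables were handled with Python 3.11.15. edgeR 4.0.16 and DESeq2 1.42.0 on whole reads, other pseudocounts, filters, scalings, windows, blocks and left-out libraries were alternatives. Wild-type pairs, the crossed block and the transcript row in place of the ORF row were added after the data were seen.

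Groups came from titles. Replicate numbers are not said to mark a shared culture. The 8 genes, lists (named by the 2 smallest adjusted p per direction) and most alternatives were chosen with earlier results of these data known. Histone genes (8) were listed as a further check: 6 rose in mre11Δ (12.1% of coding rows did), 7 in MMS (23.5%), 1 in rad50Δ (12.8%), 1 in xrn1Δ (35.1%) and none in the other mutants. Relative to the wild-type mean, their mean log2 was 2.62 in mre11Δ replicate 1, high in G1/S genes, and 0.42 in replicate 2.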

Additional observations from a re-analysis of the deposited data

Results flagged for a closer look

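In wild type in G1, 12 rows were examined (the 8 genes and the 4 upstream rows). Of these, 2 had a library far from the other 3, where chance gives about 1 in 20 for a row. It was the same library in both, so the 2 are not independent, and an excess over chance was not tested. IMD2 was lowest in wild type 1, at 6983 normalized reads, against 8231 to 8465 in the other 3. URA2 was highest in the same library, at 51769, against 39821 to 41186 in the others. That library also had G1/S genes at a mean log2 of 1.96 relative to the wild-type mean. The part of this in either value was not tested.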

How the results depend on the processing

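Of the values for single genes, rows and ratios under the alternatives, 1723 kept direction and side of the threshold, 144 fell short of it, 59 passed it anew and 26 changed sign. Left-out single libraries gave counts of called genes among the 8 of 3 to 5 in rrp6Δ, 7 in xrn1Δ, 0 to 5 in rad50Δ, 1 to 4 in mre11Δ, 1 to 3 in mre11-H125N, 0 to 1 in ku70Δ, 4 to 6 in MMS, 1 to 3 for rrp6Δ against rad50Δ and 7 for rrp6Δ against xrn1Δ. Counts of called ratios, which include XUT1610, ranged over 2 to 4 in rrp6Δ, 1 to 2 in xrn1Δ, 0 to 3 in rad50Δ, 0 to 1 in mre11Δ and 0 to 3 in MMS. XUT1610 passed the filter on low values only through rad50Δ, where it is highest. Its part in these counts, in the ratio counts below and in the totals above is therefore no result. With only the groups compared in the fit, 0 genes were called in rad50Δ, 1 in mre11Δ and 1 in mre11-H125N. With the 3 libraries high in G1/S genes left out, 1 gene was called in rad50Δ, 1 in mre11Δ and 1 in ku70Δ, and 2 ratios in xrn1Δ, 1 in rad50Δ and 1 in MMS. Median-of-ratios factors gave 1 call in ku70Δ. DESeq2 gave 4 in mre11-H125N. Against wild type 3 and 4 there were 4 calls in mre11-H125N and 1 in ku70Δ, and 1 ratio in mre11Δ. Against wild type 1 and 2 there were 2 calls in ku70Δ, and 2 ratios in xrn1Δ, 0 in rad50Δ and 0 in MMS. A pseudocount of 8 gave 2 ratios in xrn1Δ and 1 in mre11Δ, and one of 0.5 gave 1 in MMS. A window of 500 bases, or CUT rows only, both of which leave XUT1610 out, gave 1 ratio in rad50Δ. In each of these the cause was not tested.

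The replicate numbers are not said to pair libraries. With the number as a block, 2 genes were called in mre11Δ and 3 in ku70Δ, and 2 ratios in xrn1Δ, 0 in rad50Δ and 0 in MMS. Same-numbered libraries of mre11Δ and rad50Δ deviated with those of wild type (correlations of 0.437 to 0.666). Those of rrp6Δ and xrn1Δ deviated against each other (-0.321), and the crossed pairing also gave 7 calls.

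Signs changed mostly for values near 0. For ADE12 in rrp6Δ the log2 change was -0.28 under the block or against wild type 1 and 2, -0.14 in edgeR, -0.12 in DESeq2 and -0.10 to 0.20 with a library left out. ADE12 was 0.0892 in ku70Δ against wild type 3 and 4, and -0.0158 in MMS under the block or against wild type 1 and 2. HRP1 was -0.0162 in rrp6Δ by edgeR, and in xrn1Δ -0.0297 by DESeq2 and -0.00905 to 0.12 with a library left out. XUT1610 in rrp6Δ was 0.12 without the libraries high in G1/S genes, 0.0913 against wild type 3 and 4 and -0.71 to 0.12 with a library left out. CUT680 in mre11-H125N was 0.32 against wild type 3 and 4 and -0.67 to 0.13 with a library left out, and in MMS -0.0649 under the block or against wild type 1 and 2. In xrn1Δ the CUT325 ratio was -0.00936 against wild type 3 and 4. At a pseudocount of 8 in xrn1Δ the XUT1610 ratio was -0.0933, the URA2 flank ratio 0.0237 and the IMD3 flank ratio 0.12, and the URA2 flank ratio was -0.0825 to 0.14 with a library left out. Scaling alternatives moved the median of all coding rows by under 0.1, but their factors were taken from those same rows, which centres them. A change of all RNA at once could therefore not be seen. Rows of few reads, such as XUT1610 and the IMD4 flank, are limited by depth.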
